A study of Sus scrofa with 15 samples.

Results

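The citric acid cycle enzymes and the kinase PDK4 were described in Longissimus muscle, the long muscle of the back, of 15 pigs. Members were taken by name from the array's probe annotation: citrate synthase (CS), isocitrate dehydrogenases (IDH2, IDH3B and IDH3G), succinate-CoA ligase subunits (SUCLG1 and SUCLG2), malate dehydrogenases (MDH1 and MDH2) and PDK4. Of the 9 listed genes, 8 were measured, by 30 of the 31984 probes tested, and they are 8 of the 4558 genes tested; IDH3G was not analysed here. All 30 probes were well above background on all 15 arrays, so no member was lost to the filter on dim probes.

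The pigs came from the low_RFI line (RFIneg, n = 7) and the high_RFI line (RFIpl, n = 8). Residual feed intake (RFI) measures how much more an animal eats than predicted from its size and gain, and a low value means better feed efficiency. All pigs weighed 20 kg and were fed ad libitum, and each was hybridised to its own array. The labels give no breed, age, sex or time since the last meal.

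The citric acid cycle runs in the mitochondrial matrix, where it oxidises acetyl groups from carbohydrate, fat and amino acids to carbon dioxide and passes the electrons to the respiratory chain. Carbohydrate carbon enters it through pyruvate dehydrogenase. PDK4 phosphorylates that enzyme and so switches it off, and in muscle PDK4 is known for its induction in fasting and by fatty acids.

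Levels are log2 values of the processed scanner signal, set relative to the 75th percentile of each array, so that a difference of 1 is a doubling; levels of different genes were not compared. The share of probes well above background ran from 61.7% to 79.5% per array, no spot was saturated, and levels correlated between arrays at 0.974 to 0.991 across probes. There were 4 slides, and both lines were present on every slide. Array names number the pigs 1 to 8 and 55 to 62; these runs, each with both lines, were set apart by principal component 1, which carried 24.1% of the variance. Of the muscle markers, 9 of 11 were measured, and all 9 were well above background on all arrays.

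No member passed the test between lines. All 8 member genes had a lower mean in low_RFI than in high_RFI, where 45.5% of all genes did, and the median of their log2 differences (low_RFI minus high_RFI) was -0.17, beside 0.014 over all genes. With limma and Benjamini-Hochberg adjustment over all genes, 0 of the 8 had an adjusted p under 0.05, where 0.0219% of all genes, or 1 gene, did; that gene is not a member. At an unadjusted p under 0.05 the count was 1 of 8, SUCLG2, where 7.11% of all genes were under that value in either direction and 3.03% with the lower mean in low_RFI. Most of the 8 genes varied together over pigs, so their directions are not 8 separate observations. In bulk muscle, fewer cells of a type and less RNA per cell cannot be told apart.

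**Figure D1:**
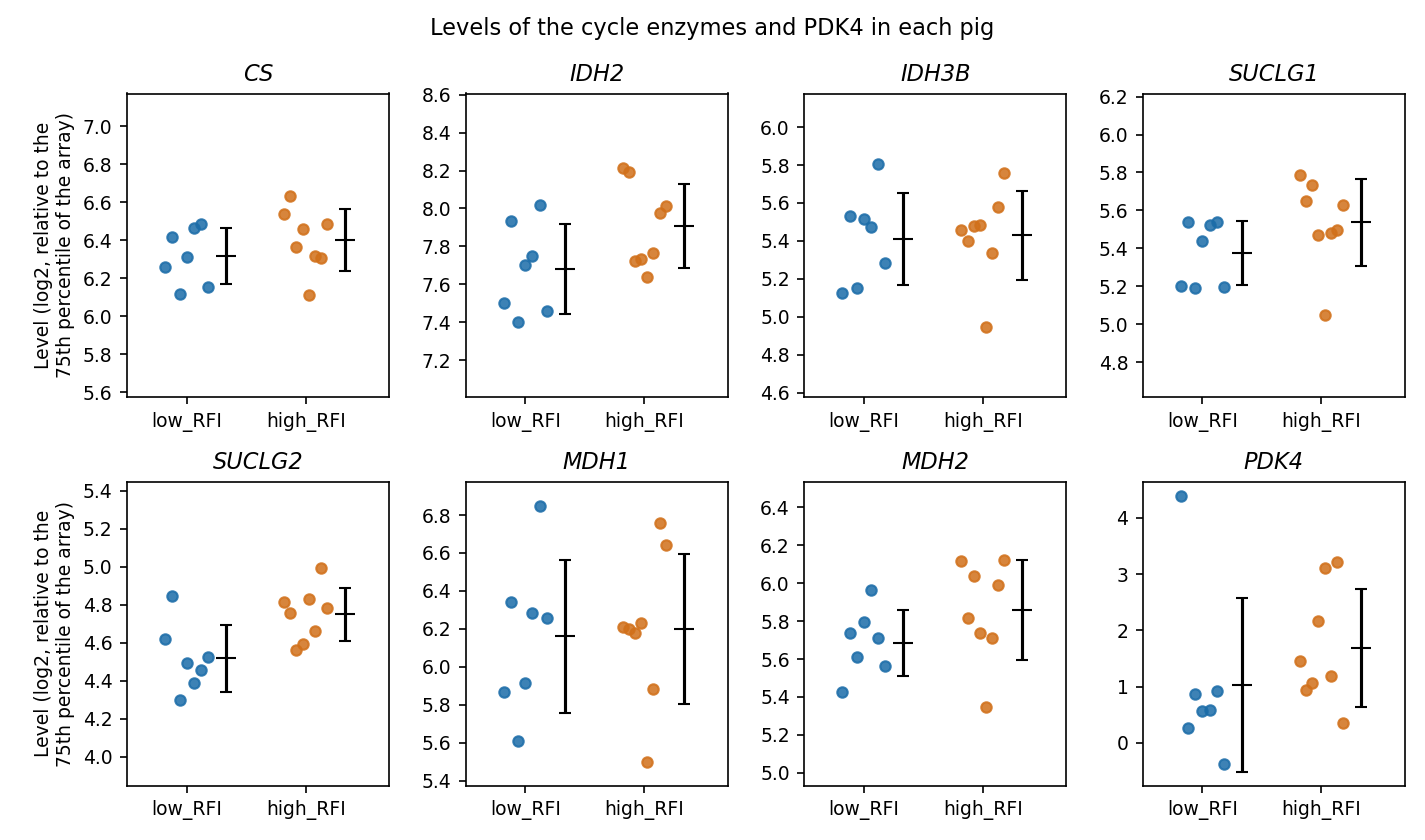
Level of each member in each pig (points; log2 relative to the 75th percentile of the array), with low_RFI (n = 7) left of high_RFI (n = 8) and the mean with its SD as black bars. Each enzyme's panel spans the same number of log2 units and PDK4's panel spans more; the lines overlap in every panel, and 1 low_RFI pig lies at 4.39 for PDK4.

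CS joins acetyl-CoA to oxaloacetate in the first step of the cycle. Its level in low_RFI pigs was lowest at 6.12, with a median of 6.31 and a highest value of 6.49; in high_RFI pigs it was lowest at 6.11, with a median of 6.41 and a highest value of 6.64. The lines overlapped over nearly the whole range, and the log2 difference was -0.085 ± 0.089 (SE, limma adjusted p = 0.946). CS varied less over the 15 pigs (SD 0.16) than most genes; 13.7% of genes had a smaller SD.

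CS was read by 7 probes, all with a lower mean in low_RFI (-0.17 to -0.085). The probes below are shown because they measure how closely repeated readings of 1 transcript agree; each number is the start position that the files give for the probe. Capitals mark the longest stretch that a probe shares with its overlapping neighbour, which is 47 bases for the probes at 542 and 549 and 55 bases for those at 1074 and 1079. The sequence at 210 was on the array as 2 probes of identical letters.
CS probe at 210: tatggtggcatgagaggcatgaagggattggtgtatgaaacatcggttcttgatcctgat
CS probe at 542: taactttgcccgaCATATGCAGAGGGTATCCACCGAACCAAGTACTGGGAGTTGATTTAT
CS probe at 549: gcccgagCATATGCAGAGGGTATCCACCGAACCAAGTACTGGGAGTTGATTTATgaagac
CS probe at 1074: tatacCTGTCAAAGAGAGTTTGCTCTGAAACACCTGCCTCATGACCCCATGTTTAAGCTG
CS probe at 1079: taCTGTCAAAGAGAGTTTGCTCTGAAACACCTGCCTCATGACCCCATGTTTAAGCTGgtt

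The pair of identical probes at 210 correlated at 0.894 over pigs, and the SD of their difference within a pig was 0.0895. The overlapping probes at 542 and 549 correlated at 0.984 and those at 1074 and 1079 at 0.767, although the pair at 1074 and 1079 shares more bases. Over all 21 pairs of CS probes the correlation was between 0.762 and 0.984.

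IDH2, the NADP-dependent isocitrate dehydrogenase of mitochondria, ranged in low_RFI pigs between 7.40 and 8.02 with a median of 7.70, and in high_RFI pigs between 7.64 and 8.21 with a median of 7.87. The lines overlapped, with the low_RFI pig higher in 14 of 56 pairs of pigs. The log2 difference was -0.23 ± 0.12 (SE), or 1.17-fold lower in low_RFI, and did not pass (limma adjusted p = 0.758). It was below 0 on all 4 slides (-0.42 to -0.011) and in both runs of pig numbers, with -0.33 in pigs 1 to 8 and -0.11 in pigs 55 to 62.

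The other IDH2 probes, which stand next to each other in the transcript without overlapping, gave larger differences than the probe that stands for the gene. They are shown because they had the smallest p of all 30 member probes.
IDH2 probe at 901: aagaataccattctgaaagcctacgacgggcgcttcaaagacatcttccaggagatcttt
IDH2 probe at 972: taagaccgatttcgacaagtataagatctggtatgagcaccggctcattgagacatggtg

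The probe at 901 differed by -0.35 ± 0.13 (SE, limma adjusted p = 0.627) and the probe at 972 by -0.38 ± 0.14 (SE, limma adjusted p = 0.608), both adjusted over all probes. The 2 probes correlated at 0.975 over pigs, so they are repeated readings rather than separate evidence. Of all probes, 6.64% had an unadjusted p under 0.05 and 0 had an adjusted p under 0.05; of the 30 member probes, 4 and 0 did.

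IDH3B is a subunit of the NAD-dependent isocitrate dehydrogenase, which oxidises isocitrate within the cycle. In low_RFI pigs it ranged between 5.12 and 5.81 with a median of 5.48, and in high_RFI pigs between 4.95 and 5.76 with a median of 5.47. The lines covered nearly the same range (-0.017 ± 0.12 SE, limma adjusted p = 0.999). Its direction turned under other settings, to 0.043 with normexp background correction and 0.015 with the mean of both probes. The other IDH3B probe is shown as the 1 member probe of 30 whose mean was higher in low_RFI, by 0.046 ± 0.15 (SE); the other 29 were lower in low_RFI, where 46.6% of all probes were.
IDH3B probe at 1026: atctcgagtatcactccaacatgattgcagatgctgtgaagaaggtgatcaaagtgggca

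SUCLG1 is the alpha subunit of succinate-CoA ligase, which makes a nucleoside triphosphate from succinyl-CoA. Its level in low_RFI pigs lay between 5.19 and 5.54 with a median of 5.44, and in high_RFI pigs between 5.05 and 5.78 with a median of 5.56. The lowest value of all belonged to a high_RFI pig, replicate 5, which stood apart from the other high_RFI pigs. With all pigs the log2 difference was -0.16 ± 0.11 (SE, limma adjusted p = 0.854), and without that pig it was -0.23 (limma adjusted p = 0.656). SUCLG1 rested on a single probe, shown for that reason.
SUCLG1 probe at 726: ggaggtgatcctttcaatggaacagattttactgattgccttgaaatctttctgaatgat

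SUCLG2, the GTP-forming beta subunit of the same ligase, had the smallest p of the members. Its level in low_RFI pigs lay between 4.30 and 4.85 with a median of 4.49, and in high_RFI pigs between 4.56 and 4.99 with a median of 4.77. The low_RFI pig was higher in 9 of 56 pairs, so most low_RFI pigs lay below most high_RFI pigs while the ranges overlapped. The mean was 4.52 ± 0.18 in low_RFI (SD, n = 7) and 4.75 ± 0.14 in high_RFI (SD, n = 8), a log2 difference of -0.23 ± 0.090 (SE) or 1.17-fold lower in low_RFI (limma adjusted p = 0.635). The difference was below 0 on all 4 slides (-0.45 to -0.086) and was -0.12 in pigs 1 to 8 and -0.36 in pigs 55 to 62. SUCLG2 was read by 1 probe, which was named through its description; a further probe described only as similar to SUCLG2 was well above background on 0 arrays and was not used.

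The malate dehydrogenases interconvert malate and oxaloacetate, MDH2 in the mitochondrial matrix as the last step of the cycle and MDH1 in the cytosol, where it takes part in the malate-aspartate shuttle. MDH2 lay in low_RFI pigs between 5.42 and 5.96 with a median of 5.71, and in high_RFI pigs between 5.35 and 6.12 with a median of 5.90. Its log2 difference was -0.17 ± 0.12 (SE, limma adjusted p = 0.859), all 3 of its probes had a lower mean in low_RFI (-0.24 to -0.17), and the low_RFI pig was higher in 14 of 56 pairs. MDH1 lay in low_RFI pigs between 5.61 and 6.85 with a median of 6.26, and in high_RFI pigs between 5.50 and 6.76 with a median of 6.21. It varied most among the enzymes, 2.55-fold over all pigs, and its lines coincided (-0.040 ± 0.20 SE, limma adjusted p = 0.998). On the 4 slides its difference was 0.55, 0.017, -0.55 and -0.32, so the direction depended on the slide.

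**Figure D2:**
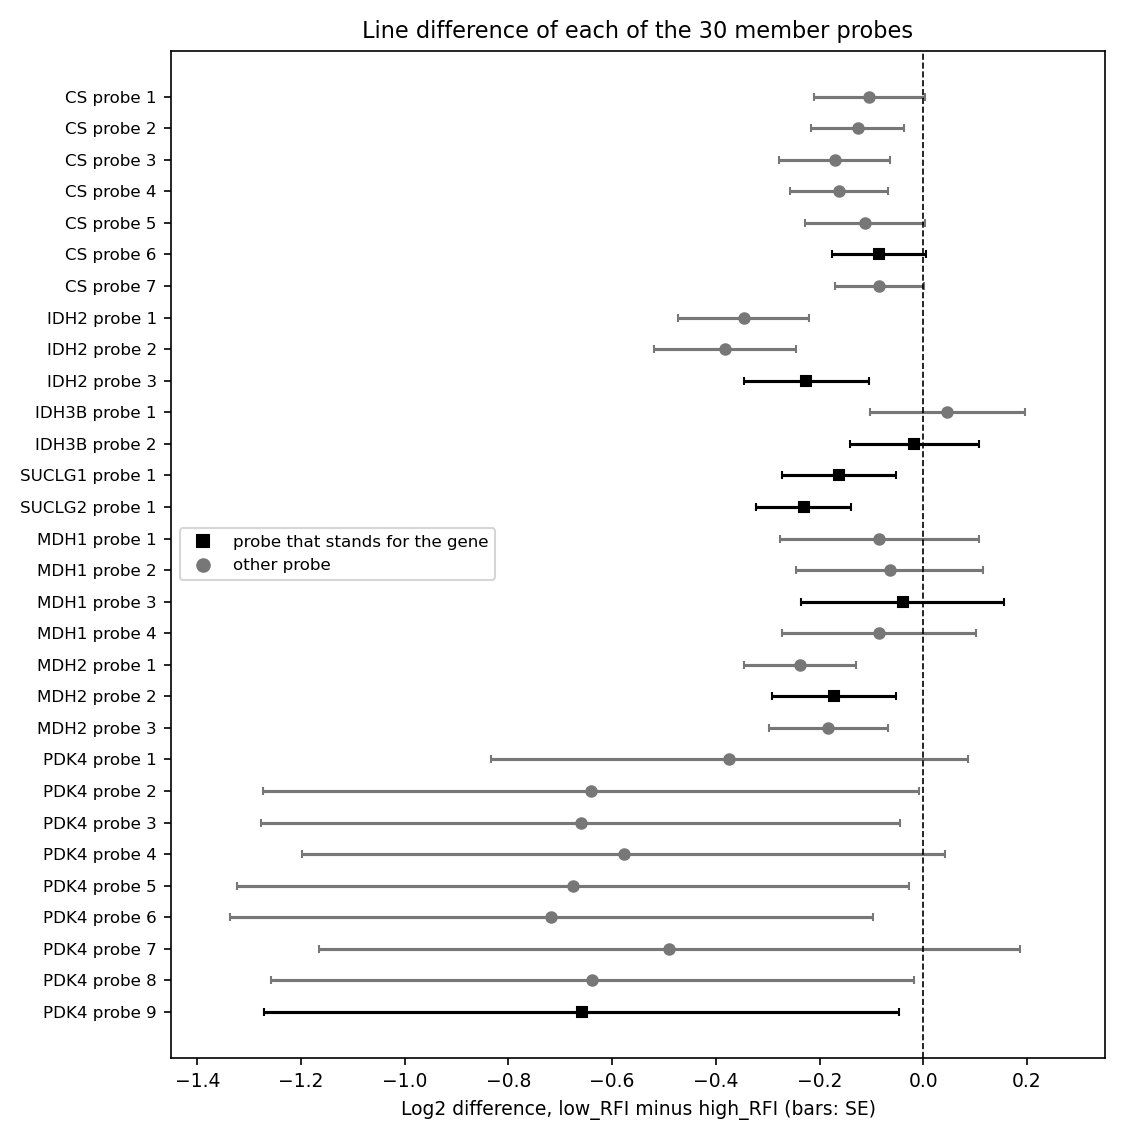
Log2 difference between lines, low_RFI minus high_RFI, for each of the 30 member probes with its SE, probes of a gene numbered by position; black squares are the probes that stand for the genes. Of the 30 probes, 29 lie left of 0; the PDK4 probes have the widest bars.

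Across slides and runs, 4 members (IDH2, SUCLG1, SUCLG2 and MDH2) had the lower mean in low_RFI on every slide, with 1 or 2 pigs of a line on a slide. In pigs 1 to 8, 7 of the 8 members were lower in low_RFI; in pigs 55 to 62, 4 of 8 were. The shares of all genes for these slide and run counts were not computed, and IDH2, SUCLG1 and MDH2 varied together over pigs. With slide as a fixed block the 8 log2 differences lay between -0.48 for PDK4 and -0.053 for IDH3B, and 0 passed limma.

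PDK4 was the most variable member. Its processed signal ran from 290 to 8289 over the arrays, or 27.3-fold after scaling, while the 7 enzymes ranged over 1.44-fold to 2.55-fold. Its SD over all pigs was 1.30, larger than that of 99.1% of genes; the median gene had 0.26. In low_RFI pigs the level was lowest at -0.38, with a median of 0.58 and a highest value of 4.39, and in high_RFI pigs it was lowest at 0.35, with a median of 1.33 and a highest value of 3.22.

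The highest low_RFI value came from replicate 1 and exceeded every other pig; the other low_RFI pigs lay between -0.38 and 0.93. The next 3 pigs were of the high_RFI line, at 3.22, 3.11 and 2.17. The mean was 1.03 ± 1.55 in low_RFI (SD, n = 7) and 1.69 ± 1.04 in high_RFI (SD, n = 8), and the low_RFI pig was higher in 12 of 56 pairs. The log2 difference of -0.66 ± 0.61 (SE, limma adjusted p = 0.936) was smaller than the spread within either line. Without low_RFI replicate 1 it was -1.22 ± 0.42 (SE, limma adjusted p = 0.517), which also did not pass.

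The difference was -0.74, 2.37, -1.97 and -0.62 on the 4 slides, and slide 2 held low_RFI replicate 1 as its only low_RFI pig. It was 0.11 in pigs 1 to 8, which include that animal, and -1.59 in pigs 55 to 62. A single pig thus set the direction on its slide and in its run.

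**Figure D3:**
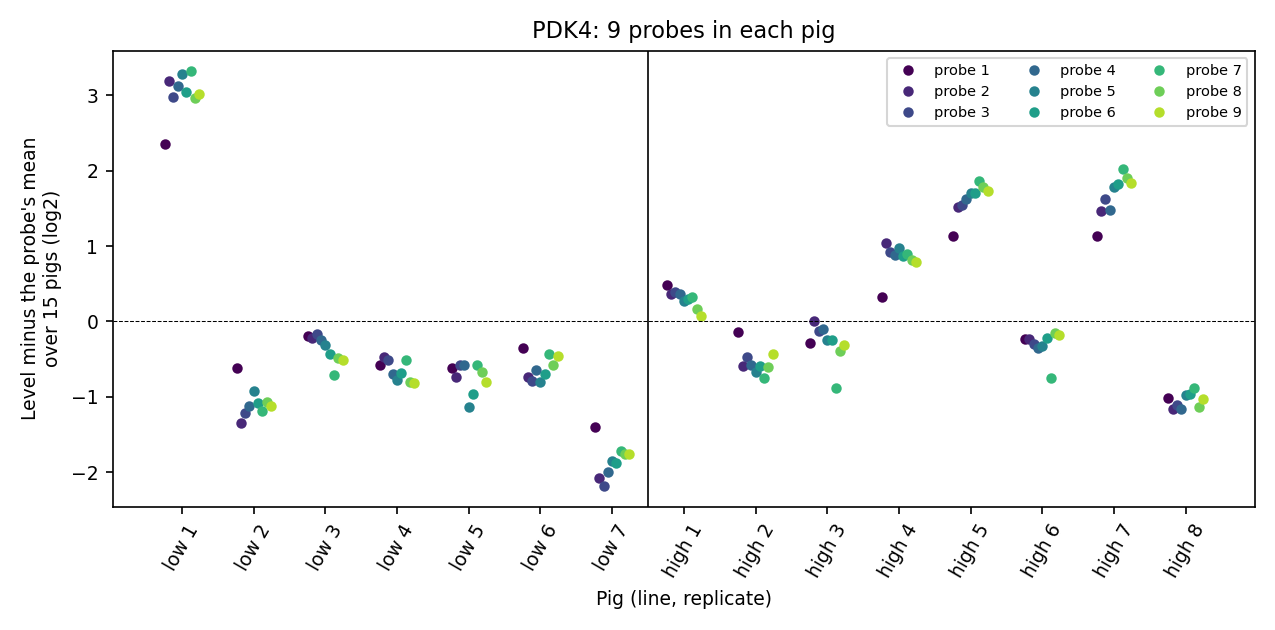
Level of each of the 9 PDK4 probes in each pig, minus that probe's mean over the 15 pigs (log2), with low_RFI pigs left of high_RFI pigs and probes coloured by position. The 9 probes move together, and low_RFI replicate 1 is highest for every probe.

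All 9 PDK4 probes ordered the pigs much alike, while the size of the spread differed by probe. Their SD was 1.19 to 1.67 in low_RFI and 0.74 to 1.24 in high_RFI, smallest in both lines for the probe at 1846. The 9 probes correlated pairwise at 0.961 to 0.998, and all 9 had a lower mean in low_RFI, with log2 differences from -0.72 to -0.37. A further probe, for an expressed sequence tag described as similar to PDK4, was left out by the naming rule. It correlated with PDK4 at 0.970. Its highest high_RFI value was 1.45, and its highest value of all, 1.77, was in low_RFI replicate 1. In that pig, 70.2% of probes were well above background, within the range of the other arrays. Its adipocyte markers had a mean level of 2.11, the highest of the low_RFI pigs and below the highest high_RFI pig at 2.16. Its skeletal muscle markers (9.26) and 7 other genes of the cycle (4.84) had the lowest mean level of the low_RFI pigs. Both lay above the lowest high_RFI pig, at 9.18 and 4.73. The part of these lists in the PDK4 level was not tested.

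Most of the enzymes varied together over pigs. Each of the 28 pairs of the 8 measured members was tested for correlation over the 15 pigs, by two-sided permutation with adjustment over the 28. The points share the scaling of their array. Among CS, IDH2, IDH3B, SUCLG1, MDH1 and MDH2, all 15 pairs had a Pearson r between 0.58 and 0.89, each with an adjusted permutation p of 0.0417 or less. Spearman's rho passed for 7 of these 15. The share of pairs of other genes that would pass was not computed, so these counts have no background beside them. The closest pairs were SUCLG1 with MDH2 (r = 0.89, rho = 0.81, adjusted permutation p = 0.00042), IDH3B with MDH1 (r = 0.88, rho = 0.82, adjusted permutation p = 0.00042), CS with SUCLG1 (r = 0.85, rho = 0.85) and CS with IDH2 (r = 0.84, rho = 0.86).

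The 15 correlations lay between 0.33 and 0.94 within low_RFI, between 0.47 and 0.93 within high_RFI, between 0.55 and 0.93 in pigs 1 to 8, and between 0.68 and 0.93 in pigs 55 to 62. They were thus above 0 in each line and each run. For each pair, r was also taken without the 2 pigs farthest from the median of its first gene, in the order listed above. The pigs left out thus differed between pairs, and the 15 correlations then lay between 0.27 and 0.84. High_RFI replicate 5 was the lowest high_RFI pig for 6 of the 7 enzymes and low_RFI replicate 3 the lowest low_RFI pig for 5 of 7. The array of high_RFI replicate 5 also had the highest 75th percentile of the signal (441), to which its levels were scaled. The number of pairs that passed, 16 of 28 with all pigs, fell to 8 without high_RFI replicate 5, 9 without low_RFI replicate 1 or high_RFI replicate 8, and 10 without low_RFI replicate 3. With quantile normalization, which gives all arrays the same distribution, 5 of the 28 passed and the 15 correlations lay between 0.29 and 0.80; with normexp background correction 10 passed. With slide means removed 13 of the 28 passed and the 15 correlations lay between 0.48 and 0.93; SUCLG1 with MDH1, MDH1 with MDH2 and IDH2 with SUCLG2 lost their calls. Pigs were permuted across slides there, with no allowance for the removed means, so the count of 13 may be too high.

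SUCLG2 had lower correlations with the other enzymes over all pigs, but not in both runs of pig numbers. It passed with IDH2 by Pearson (r = 0.57, adjusted permutation p = 0.0495) and not by Spearman (rho = 0.45, adjusted permutation p = 0.17), and the Pearson call was lost with normexp, quantile normalization, slide as a fixed block and the mean of probes. When 1 pig was left out, a pair with SUCLG2 or PDK4 passed only without low_RFI replicate 6 or without high_RFI replicate 5. The call with IDH2 was thus also lost on leaving out any other single pig. With the other enzymes its r was between 0.074 and 0.24. Its r with the 6 enzymes lay between 0.35 and 0.84 in pigs 1 to 8 and between -0.35 and 0.26 in pigs 55 to 62. That difference between SUCLG2 and the other enzymes was not tested. With SUCLG1, its partner in the ligase, r was 0.23 (rho = 0.27, adjusted permutation p = 0.472), and it was 0.63 in pigs 1 to 8 and -0.12 in pigs 55 to 62. PDK4 passed with 0 of the 7 enzymes; its r ran from -0.42 with IDH3B to 0.36 with SUCLG2, and 0 of the 7 had an unadjusted permutation p under 0.05.

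**Figure D4:**
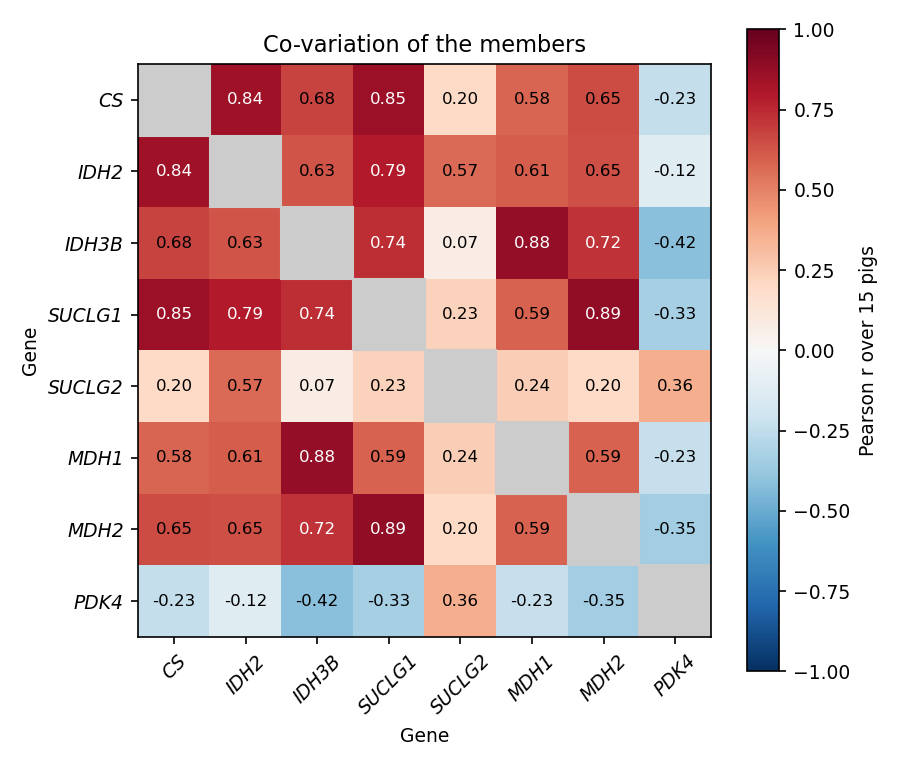
Pearson r over the 15 pigs for each pair of members (colour and number). The 6 enzymes other than SUCLG2 form the block of high values (0.58 to 0.89); the row of SUCLG2 and the row of PDK4 are paler or blue.

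The mean standardised level of the 7 enzymes ran from -1.36 to 0.60 SD units in low_RFI pigs with a median of -0.26, and from -1.27 to 1.04 in high_RFI pigs with a median of 0.48. The lines overlapped. The pig with the highest PDK4, low_RFI replicate 1, was at -0.97, and high_RFI replicate 5, with PDK4 at 3.11, was at -1.27; high_RFI replicate 7, with PDK4 at 3.22, was at 0.77. Over all pigs PDK4 had an r of -0.24 with this mean, and 19.2% of genes had a lower one. The enzyme mean had an r of -0.35 with the share of probes well above background (rho = -0.34, permutation p = 0.203, adjusted over 4 relations 0.566; -0.18 without the 2 farthest pigs).

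**Figure D5:**
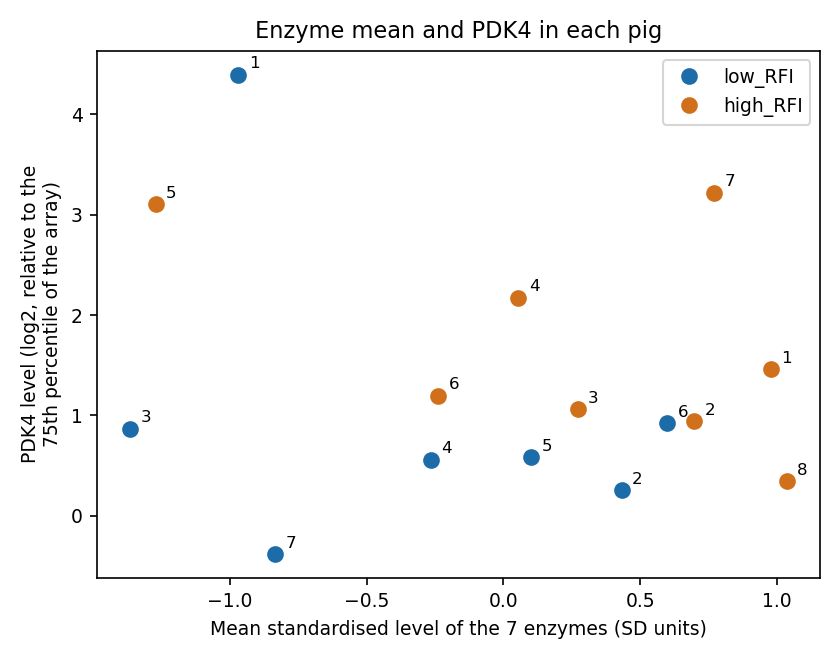
PDK4 level against the mean standardised level of the 7 enzymes in each pig, labelled by replicate number. The 3 pigs highest for PDK4 lie at both ends of the enzyme axis, with low_RFI replicate 1 at -0.97, high_RFI replicate 5 at -1.27 and high_RFI replicate 7 at 0.77.

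The 5 genes most like the enzyme mean, of 4551 compared over 15 pigs, were ATP5D, a subunit of ATP synthase (r = 0.94), SLC25A3, the phosphate carrier (0.92), COX5B, a subunit of cytochrome c oxidase (0.91), SDHB, the iron-sulfur subunit of succinate dehydrogenase (0.91), and CYCS, cytochrome c (0.91). The median gene had an r of 0.018 and the 95th percentile was 0.57. With quantile normalization these 5 had r between 0.85 and 0.92. The 5 genes most like PDK4 were SPINT1, a serine protease inhibitor (r = 0.78), RIT1, a Ras-related GTPase (0.75), BEST1, a chloride channel (0.74), CYSLTR1, a leukotriene receptor (0.73), and KLK1, a kallikrein (0.72), of 4557 compared. Without the 2 pigs farthest from the PDK4 median they had r between 0.54 and 0.69. Each set holds the highest values among all genes compared and is given as a description.

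Of 11 other genes of the cycle, 7 were measured. All 7 had a lower mean in low_RFI (median -0.12), where 45.5% of all genes did. Of the 7, 0 passed limma and 0 had an unadjusted p under 0.05, where 7.11% of all genes did. DLD, the lipoamide dehydrogenase shared by several complexes, differed by -0.27 ± 0.15 (SE), DLST of the oxoglutarate dehydrogenase complex by -0.15 ± 0.14 and SDHA, the flavoprotein of succinate dehydrogenase, by -0.12 ± 0.14. The r of the 7 genes with the enzyme mean was between 0.62 and 0.91, so their directions are not separate from those of the enzymes.

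Of 13 genes of pyruvate entry, 5 were measured and 0 passed limma. Of the 5, 2 had a lower mean in low_RFI, where 45.5% of all genes did, and the median was 0.064. PDK1, another kinase of pyruvate dehydrogenase, had its higher mean in low_RFI, with a level of 1.63 ± 0.36 in low_RFI (SD, n = 7) and 1.12 ± 0.24 in high_RFI (SD, n = 8), a log2 difference of 0.51 ± 0.15 (SE) or 1.42-fold higher in low_RFI. Both its probes had the higher mean in low_RFI, and it did not pass (limma adjusted p = 0.459). PDHA1, the catalytic subunit that these kinases phosphorylate, differed by -0.13 ± 0.14 (SE), pyruvate carboxylase (PC) by 0.064 ± 0.15 and DLAT, the acetyltransferase of the complex, by -0.041 ± 0.13. The r of PDHA1 with the enzyme mean was 0.87 and that of PDK1 was -0.19.

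Of 13 genes of shuttles and cytosolic partners, 4 were measured and 0 passed limma. Of the 4, 3 had a lower mean in low_RFI (median -0.24), where 45.5% of all genes did. The cytosolic malic enzyme ME1 differed by -0.55 ± 0.23 (SE, limma adjusted p = 0.674). The aspartate aminotransferases, which work with the malate dehydrogenases in the malate-aspartate shuttle, differed by -0.19 ± 0.13 for the mitochondrial GOT2 and -0.29 ± 0.28 for the cytosolic GOT1, and ATP citrate lyase (ACLY) by 0.063 ± 0.29. GOT1 and GOT2 had r of 0.81 and 0.84 with the enzyme mean.

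Of 16 genes of the fasting response and of PPAR signalling, the programme in which PDK4 is usually placed, 15 were measured. Of these, 12 had a lower mean in low_RFI (median -0.12), where 45.5% of all genes did. In limma 0 passed and 3 had an unadjusted p under 0.05, all 3 lower in low_RFI. Of all genes, 7.11% were under that value in either direction and 3.03% with the lower mean in low_RFI. CPT1B, the muscle carnitine palmitoyltransferase of the outer mitochondrial membrane, was at 1.07 ± 0.17 in low_RFI (SD, n = 7) and 1.60 ± 0.25 in high_RFI (SD, n = 8), a log2 difference of -0.53 ± 0.11 (SE, limma adjusted p = 0.233). HADHA, of mitochondrial fatty acid oxidation, differed by -0.24 ± 0.11 (SE, adjusted p = 0.683), the coactivator PPARGC1A by -0.40 ± 0.18 (adjusted p = 0.696) and ACADM, an acyl-CoA dehydrogenase, by -0.19 ± 0.12. The r of these 15 genes with PDK4 was between -0.31 and 0.50, and with the enzyme mean between -0.43 and 0.76.

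PDK4 was tested for correlation with each of 58 genes of these lists and of the marker lists. After adjustment over the 58, 0 passed (smallest adjusted permutation p 0.636). The 3 with an unadjusted permutation p under 0.05 for Pearson's r, named here after their values were seen, were the adipocyte genes ADIPOQ (r = 0.63, rho = 0.50) and FABP4 (r = 0.54, rho = 0.37) and the fast-fibre troponin TNNT3 (r = -0.52, rho = -0.49). For Spearman's rho none of these 3 was under 0.05 (0.0598, 0.177 and 0.0685 by permutation), while CPT1B was (rho = 0.52, r = 0.23, permutation p of rho 0.0485, adjusted 0.804). Without the 2 pigs farthest from the PDK4 median, Pearson's r was 0.43 for ADIPOQ, 0.19 for FABP4, -0.28 for TNNT3 and 0.41 for CPT1B. All 4 measured adipocyte markers of 5 had r of 0.24 to 0.63 with PDK4, and of 0.087 to 0.43 without the same 2 pigs. The mean level of these markers was 0.64 to 2.11 in low_RFI and 0.63 to 2.16 in high_RFI.

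Markers of slow fibres, which hold more mitochondria than fast ones, were positively correlated with the enzymes. All 6 measured of 8 had r of 0.49 to 0.69 with the enzyme mean. All 6 also had a lower mean in low_RFI (median -0.12), where 45.5% of all genes did, with 0 passing limma. As these markers varied with the enzymes, their directions are not separate from those of the enzymes. Their mean level was 6.93 to 8.56 in low_RFI and 6.75 to 8.38 in high_RFI. The 9 measured skeletal muscle markers, mostly of fast fibres, had r of -0.018 to 0.54 with the enzyme mean (median 0.36), which overlaps the slow-fibre range. The 4 adipocyte markers had r of -0.41 to -0.20 with it. The part of fibre type or of fat cells in the enzyme values was not tested.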

How the data were processed

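Total RNA (150 ng) from each pig's muscle was labelled with Cy3, per the labels' protocols. Scanner intensity values came from Feature Extraction 10.7.3.1 (protocol GE1_107_Sep09), background-subtracted, per the file headers; the same files hold other columns, flags for spots well above background or non-uniform, per the file headers. The authors' deposited table holds log2 values, found on the files to be log2 processed signal minus the array's median over 29364 listed spots (largest difference 4.93e-08); R 2.10.0 is named in the submitters' processing notes. No genome build is given in the sources used here.

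Control and non-uniform spots were left out, and log2 processed signal was centred on each array's 75th percentile. Probes well above background on at least 7 of 15 arrays, with at least 4 values per line, were tested (31984 of 43603). Probes were named by accession or symbol through RefSeq gene tables: 11898 probes had 1 symbol, 837 a LOC name, and 30868 several or none. A gene was its tested probe of highest mean level. Lines were compared with limma 3.58.1 (R 4.3.3), two-sided, adjusted over all genes or probes at 0.05. Correlations used 100000 permutations. The number of arrays limits the precision (median SE over genes 0.13). The fit was also run on simulated data, in which genes varied independently and no slide or run effects were present. That simulation cannot show how the fit behaves with the shared variation seen here.

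Members and lists were chosen with earlier results of these data known. Text names all members, of each list of pathway genes up to 4 of smallest p, and the 5 genes most like PDK4 and the enzyme mean; 1 gene that this rule names is not reported here; marker lists covered skeletal muscle, slow fibre, adipocyte, leukocyte, endothelium, matrix and erythrocyte. With IDH3G unmeasured, 28 member pairs replaced the 36 planned. Same-numbered pigs of the lines are separate animals and were not paired.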

Additional observations from a re-analysis of the deposited data

Results flagged for a closer look

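Of 16 sets of values (8 members in 2 lines), 2 held a pig far from the others by Dixon's ratio; chance flags about 1 set in 20. The PDK4 level of low_RFI replicate 1 was 4.39, and its gap to the next low_RFI pig was 0.73 of the range of that line. All 9 PDK4 probes had their highest value in this pig. The SUCLG1 level of high_RFI replicate 5 was 5.05, the lowest of 8, with a gap of 0.58 of the range of that line. The same pig was the lowest of its line for 6 of the 7 enzymes, and its PDK4 level was 3.11. Its array had the highest share of probes well above background (79.5%) and the highest 75th percentile of the signal (441) of all arrays. Levels are relative to that percentile, and the part of the scaling in its low enzyme levels was not tested.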

How the results depend on the processing

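Each member's log2 difference was recomputed under 29 alternatives: background correction, normalization, the deposited values, filters on dim and non-uniform spots, slide, replicate number and pig-number run as blocks, the limma model, the probe per gene, and leaving out each pig. Under all 29, 0 members passed. CS, IDH2, SUCLG1, SUCLG2, MDH2 and PDK4 kept their direction in all 29; adjusted p ranged from 0.403 to 0.999 for these 6, and PDK4 ranged from -0.85 to -0.48 over the processing alternatives and from -1.22 to -0.42 when 1 pig was left out. IDH3B turned to 0.043 with normexp, 0.015 with the mean of probes, 0.030 with the replicate block, and ranged from -0.086 to 0.031 when 1 pig was left out. MDH1 turned to 0.023 with the replicate block and ranged from -0.15 to 0.052 when 1 pig was left out. The cause was not tested. The median of the members ranged from -0.23 to -0.13 when 1 pig was left out and was -0.14 with the replicate block, while the median of all genes lay between -0.023 and 0.020 over the processing alternatives. The count of genes passing was 1, and 0 with normexp, median scaling, the deposited values, no filter on dim probes, slide as a fixed block, the pig-number run as a block and the replicate block; it ranged from 0 to 2 when 1 pig was left out. Same-numbered pigs deviated together at r of -0.035 to 0.31, over 0.1 in 5 of 7 pairs, and 1 of 7 matched its own number best, so the numbers were not taken to pair pigs; the block changed no other call between lines and was not run for the correlations. Of the 28 member pairs, 16 passed, 10 with normexp, 5 with quantile normalization, and 8 to 15 when 1 pig was left out, an alternative added after seeing the data. Slide as a random block was not run for the correlations.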

Other observations

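Marker lists of other cell types were read in the same fit, and 0 of their genes passed limma. Leukocyte markers (3 measured of 5) had r of -0.47 to 0.041 with the enzyme mean and 0.026 to 0.42 with PDK4. Endothelial markers (4 of 4) had r of -0.024 to 0.20 with the enzyme mean, and matrix genes (2 of 4) 0.054 to 0.078. Skeletal muscle markers (9 of 11) had r of -0.52 to 0.015 with PDK4. Of the 9, 7 had a higher mean in low_RFI (median log2 difference 0.058), where 45.5% of all genes had the lower mean in low_RFI. Of the 3 erythrocyte markers, 0 were measured.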
